A study of Solanum lycopersicum with 6 samples.

Results

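The 40 genes described here are the tomato (Solanum lycopersicum) Aux/IAA genes, 21 of them, and ARF genes, 19 of them, out of 34722 gene identifiers in the deposited table. They were chosen by identifier as members of the 2 families, with ARF2, ARF3 and ARF4 left out. The rule uses no expression value, but earlier results of these data were known when it was chosen. RNA was sequenced from 6 libraries in 3 groups of 2. The WT libraries came from the apex of WT plants and, by the labels, held the meristem together with its 2 youngest leaf primordia. The lfs libraries came from the meristem of the leafless (lfs) mutant, and the TIBA libraries from the meristem of pin-like shoots induced by spraying 1 mM TIBA, an inhibitor of polar auxin transport. Seedlings were raised under glass, taken at an age of 14 to 18 days, fixed in acetone and dissected. The labels name neither the lfs allele nor the genotype of the sprayed plants, and do not tell separate plantings from repeats of 1 planting. The p-values therefore cover the scatter of these libraries, part of which may be technical.

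Auxin acts on transcription through both families. ARF proteins bind auxin response elements in DNA and activate or repress the genes beside them, while Aux/IAA proteins bind ARFs and, together with TOPLESS co-repressors, keep auxin-responsive genes off. Auxin joins an Aux/IAA protein to a TIR1/AFB receptor, which leads to the destruction of the repressor and frees the ARF. Many Aux/IAA genes are themselves induced by auxin. In the shoot apex, auxin maxima mark where leaf primordia form, and blocking auxin transport gives a bare, pin-shaped tip. Neither the table nor the RefSeq gene table pairs these identifiers with names (0 of 40 matched). The family of each identifier was taken from published tomato gene lists recalled without the sources at hand, and no individual name or role is given. The chromosome is the 2-digit number within an identifier, a convention of tomato gene naming. No sequence is shown.

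Libraries held 17640302 to 26054787 reads assigned to genes. Values are normalized counts, that is, reads divided by 1 size factor per library, in which 1 read was worth 0.813 to 1.20. They are not divided by gene length, so levels are compared within a gene and not between genes. A gene was tested when it reached a normalized count of 10 in at least 2 libraries, and was called at a Benjamini-Hochberg adjusted p under 0.05 over the 19807 genes tested (limma on log2(normalized count + 1), all 6 libraries in 1 fit). Of the members, 37 were tested. Over all tested genes, replicates differed least in WT (median SD 0.092 log2 units), more in lfs (0.16) and most in TIBA (0.23). The mutated gene and leaf markers are not named in the table, so neither was used to check the labels. In whole apices, fewer cells of a type and less RNA per cell cannot be told apart, and in both comparisons with WT the presence of primordia goes with the group and cannot be told apart from the mutation or the treatment.

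Aux/IAA transcripts moved in both directions in the leafless apices, with more genes called higher than lower against WT. In lfs against WT, 5 of 19 tested Aux/IAA genes rose, 2 fell and 12 were not called, where 14.2% of all tested genes were called (8.9% higher and 5.29% lower). In TIBA against WT, 8 rose, 2 fell and 9 were not called, where 18.6% of all tested genes were called (10.8% higher and 7.77% lower). The median log2 difference of the 19 genes was 0.32 in lfs and 0.53 in TIBA, against -0.001 and 0.015 over all tested genes. Both comparisons use the same WT libraries. One of the 19, Solyc06g084070, passed the minimum only through its lfs and TIBA libraries and therefore had to differ from WT. Without it, 4 of 18 rose and 2 fell in lfs, 7 of 18 rose and 2 fell in TIBA, and the median log2 differences were 0.20 and 0.43. These 18 still include Solyc08g021820, called higher in both comparisons. In WT it reached 10 in replicate 1 (11.7) but not in replicate 2 (9.53), so it needed a leafless library to be tested. The size in TIBA depended on the library. The median log2 difference of the 19 genes from the WT mean was 0.31 in TIBA replicate 1 and 0.75 in TIBA replicate 2. Over all tested genes it was 0.006 and 0.036.

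**Figure D1:**
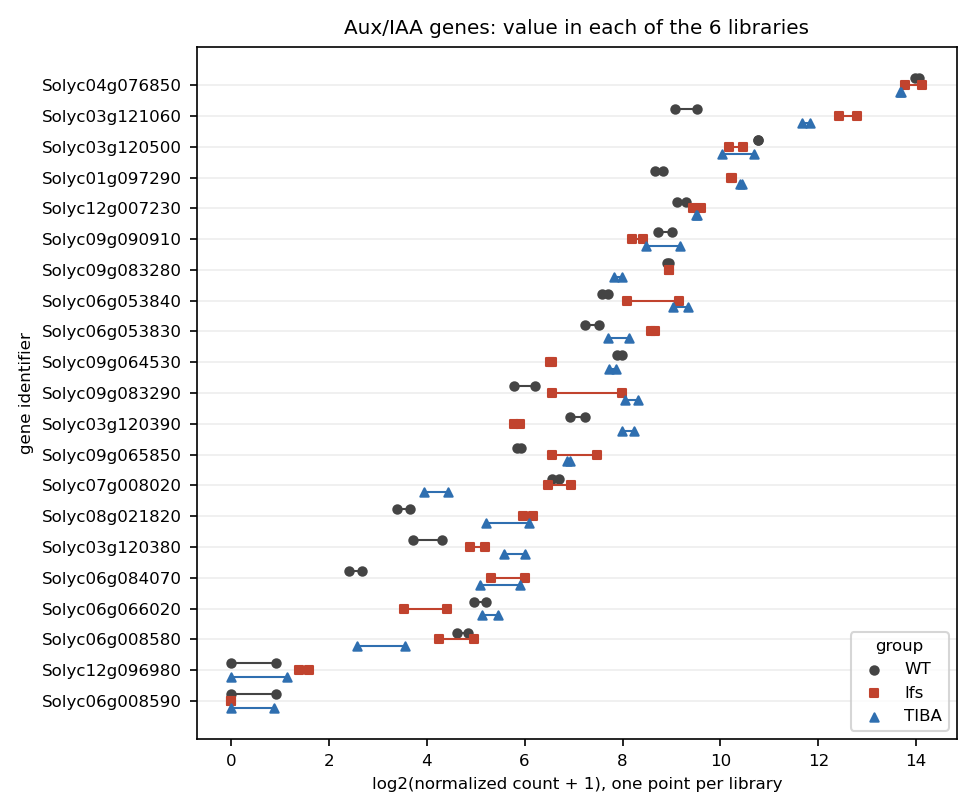
Normalized count of each of the 21 Aux/IAA genes on the log2(value + 1) scale, 1 point per library, with the 2 libraries of a group joined by a line. Solyc03g121060 and Solyc01g097290 are separated from WT in both leafless groups, Solyc07g008020 is low in TIBA, and the lfs libraries of Solyc09g083290 and Solyc06g053840 lie far apart.

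Solyc03g121060 (chromosome 3) showed one of the 2 largest increases of the family in lfs; the other, Solyc06g084070, rests on few reads and was larger as a ratio of means (10.5). The normalized counts of Solyc03g121060 were 535 and 737 in WT, 5529 and 7068 in lfs, and 3260.4 and 3653 in TIBA. The 3 groups did not overlap: both lfs libraries stood above both TIBA libraries, and these above both WT libraries. The mean in lfs was 9.91 times that in WT (log2 3.31, SE 0.20, limma adjusted p = 0.00035), and the mean in TIBA 5.44 times (log2 2.46, SE 0.20, limma adjusted p = 0.0011). The log2 difference between lfs and TIBA, 0.86 (SE 0.20, 95% interval 0.38 to 1.33), was not called (limma adjusted p = 0.059). It was called by DESeq2 (0.86, adjusted p = 0.0020) and after quantile normalization (0.89, limma adjusted p = 0.046). The authors' deposited table, also from DESeq2, did not call it (adjusted p = 0.083).

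Solyc01g097290 (chromosome 1) had the smallest standard error among the Aux/IAA genes called higher. It stood at 407 and 455 in WT, 1208 and 1185 in lfs, and 1348 and 1393 in TIBA. Both leafless groups lay entirely above WT. The increase was 2.78-fold in lfs (log2 1.47, SE 0.13, limma adjusted p = 0.00097) and 3.18-fold in TIBA (log2 1.67, SE 0.13, limma adjusted p = 0.00095). The lfs value differed from the TIBA value by -0.20 on the log2 scale (95% interval -0.50 to 0.11, limma adjusted p = 0.41). The increases of Solyc03g121060 and Solyc01g097290 over WT were called in each alternative tried, including each fit that left out a library.

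Both leafless groups were also higher for 2 Aux/IAA genes with few reads in WT. In the first the minimum fixed the direction, and the second needed a leafless library to reach the minimum. Solyc06g084070 (chromosome 6) was at 5.39 and 4.33 in WT, resting on 6 and 5 reads, at 38.5 and 63.4 in lfs, and at 33.1 and 58.7 in TIBA. Its log2 increase was 3.11 in lfs (SE 0.48) and 2.95 in TIBA (SE 0.48). With no minimum applied to any gene, both differences were called (limma adjusted p = 0.0067 and 0.0079). The lfs and TIBA libraries overlapped, and their log2 difference of 0.16 had a 95% interval from -0.97 to 1.29. The calls against WT were lost without either WT replicate (log2 2.98 and 3.24 in lfs, 2.82 and 3.08 in TIBA), and that in lfs also without lfs replicate 2 (2.76). Solyc08g021820 (chromosome 8) was at 11.7 and 9.53 in WT, 61.8 and 70.7 in lfs, and 67.0 and 35.9 in TIBA. Its increases were 2.54 in lfs (SE 0.43, limma adjusted p = 0.010) and 2.12 in TIBA (SE 0.43, limma adjusted p = 0.017) on the log2 scale. The TIBA and lfs libraries overlapped, and the log2 difference between those groups was 0.42 (95% interval -0.58 to 1.42). Its call in lfs was lost without any 1 of the WT and lfs libraries (log2 2.41 to 2.67) and that in TIBA without either WT replicate (1.98 and 2.25).

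One further Aux/IAA gene was called higher in lfs and not in TIBA. Solyc06g053830 (chromosome 6) stood at 149.9 and 183 in WT, 406 and 381 in lfs, and 206 and 280.1 in TIBA. The 3 groups did not overlap, with TIBA in the middle. The log2 difference from WT was 1.24 in lfs (SE 0.22, limma adjusted p = 0.013) and 0.53 in TIBA (SE 0.22, limma adjusted p = 0.14). The direct difference between lfs and TIBA, 0.71, did not pass the test either (SE 0.22, limma adjusted p = 0.12), so the 2 leafless groups were not shown to differ. The call in lfs was lost without any 1 of the WT and lfs libraries (log2 1.10 to 1.39). Without TIBA replicate 1 the log2 difference in TIBA was 0.75, from the higher TIBA library alone with no spread of TIBA, which lends it no support.

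Aux/IAA genes called higher in TIBA and not in lfs showed intermediate or scattered lfs values. Solyc09g083290 (chromosome 9) was at 53.9 and 72.8 in WT, 254 and 93.5 in lfs, and 265 and 319.6 in TIBA. Solyc06g053840 (chromosome 6) was at 207 and 189.8 in WT, 571 and 272 in lfs, and 644 and 521 in TIBA. For both genes lfs replicate 1 came close to the TIBA libraries while lfs replicate 2 lay nearer to WT. Solyc03g120380 (chromosome 3) was at 18.9 and 12.1 in WT, 35.5 and 28.5 in lfs, and 62.9 and 46.7 in TIBA, without overlap of the 3 groups. The log2 increases in TIBA were 2.20 (SE 0.46, limma adjusted p = 0.019), 1.54 (SE 0.33, limma adjusted p = 0.021) and 1.77 (SE 0.41, limma adjusted p = 0.027), in the same order. In lfs the values were 1.29, 0.99 and 1.02, with limma adjusted p-values of 0.11, 0.094 and 0.15. No direct difference between lfs and TIBA passed the test for these 3 genes (limma adjusted p = 0.28, 0.36 and 0.32). Without lfs replicate 2, the log2 differences of Solyc09g083290 and Solyc06g053840 in lfs against WT were 2.00 and 1.52. That fit keeps the higher lfs library alone and takes no spread from lfs, so it lends these differences no support. With all libraries, DESeq2 called both (adjusted p = 0.021 and 0.022). The authors' deposited table, also from DESeq2, called Solyc06g053840 (adjusted p = 0.023) and not Solyc09g083290 (adjusted p = 0.13). The 3 calls in TIBA were lost without either WT replicate (log2 1.98 and 2.41 for Solyc09g083290, 1.6 and 1.48 for Solyc06g053840, 2.07 and 1.48 for Solyc03g120380). That of Solyc06g053840 was also lost without either TIBA replicate (1.39 and 1.69) and that of Solyc09g083290 without TIBA replicate 2 (2.06).

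Solyc03g120390 (chromosome 3) went opposite ways in the leafless apices. It stood at 120.3 and 149 in WT, 58.7 and 53.7 in lfs, and 254 and 302 in TIBA. The 3 groups did not overlap, and TIBA had 4.94 times the mean of lfs. The log2 difference from WT was -1.24 in lfs (SE 0.25, limma adjusted p = 0.020) and 1.04 in TIBA (SE 0.25, limma adjusted p = 0.030). The direct difference, lfs minus TIBA, was -2.28 (SE 0.25, limma adjusted p = 0.0064). The call in lfs was lost without any 1 of the WT and lfs libraries (log2 -1.39 to -1.09), that in TIBA without either WT replicate or TIBA replicate 2 (0.89 to 1.20), and the direct difference without lfs replicate 2 (-2.22, limma adjusted p = 0.058).

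Solyc09g064530 (chromosome 9) was low in lfs alone. It stood at 253 and 235 in WT, 93.2 and 91.1 in lfs, and 211 and 231 in TIBA. Both lfs libraries lay far below the other 4. It fell by 1.39 on the log2 scale in lfs against WT (SE 0.21, limma adjusted p = 0.0067), and lfs was below TIBA by a log2 value of -1.25 (SE 0.21, limma adjusted p = 0.023). TIBA differed from WT by -0.14 (95% interval -0.63 to 0.35). The difference between lfs and TIBA was not called with only the 4 lfs and TIBA libraries (limma adjusted p = 0.10, against 0.00013 to 0.13 over the alternatives), and was lost without any 1 of the WT and lfs libraries (log2 -1.27 to -1.24). The decrease against WT was lost without either WT replicate (log2 -1.34 and -1.45).

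Other Aux/IAA genes were low in TIBA and close to WT in lfs. Solyc07g008020 (chromosome 7) was at 93.4 and 103 in WT, 88.1 and 123 in lfs, and 20.7 and 14.4 in TIBA. Solyc09g083280 (chromosome 9) was at 479 and 493 in WT, 491 and 491 in lfs, and 225 and 254 in TIBA. In both genes the WT and lfs libraries overlapped and the TIBA libraries lay below all of them. Against WT, TIBA was lower by log2 values of -2.44 (SE 0.35, limma adjusted p = 0.0060) and -1.02 (SE 0.16, limma adjusted p = 0.0073). Against TIBA, lfs was higher by 2.52 (SE 0.35, limma adjusted p = 0.013) and 1.04 (SE 0.16, limma adjusted p = 0.017). The lfs differences from WT were 0.084 (95% interval -0.74 to 0.90) and 0.015 (95% interval -0.35 to 0.38). With only the 4 lfs and TIBA libraries, neither direct difference passed the test (limma adjusted p = 0.052 and 0.073, against 4.7e-06 to 0.11 and 2.3e-05 to 0.12 over the alternatives). Without lfs replicate 2 the direct difference of Solyc07g008020 was 2.29 and not called, and that of Solyc09g083280 was lost without any 1 of the WT and lfs libraries (log2 1.04). The decreases in TIBA were lost without either WT replicate (log2 -2.51 and -2.37, and -1.04 and -1.0). The authors' deposited table called Solyc09g083280 neither in TIBA against WT (adjusted p = 0.063) nor in lfs against TIBA (adjusted p = 0.11).

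In the direct comparison of the leafless apices, 2 of 19 Aux/IAA genes were thus higher in lfs, 2 were lower and 15 were not called, where 4.6% of all tested genes were called (1.97% higher and 2.64% lower in lfs). The median log2 difference of the family was 0.007, against 0.018 over all tested genes. The groups did not overlap for 13 of the 19, where 48.9% of all tested genes did not overlap. Against WT, the groups did not overlap for 15 in lfs and 17 in TIBA, where the shares over all tested genes were 66.6% and 66.4%.

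**Figure D2:**
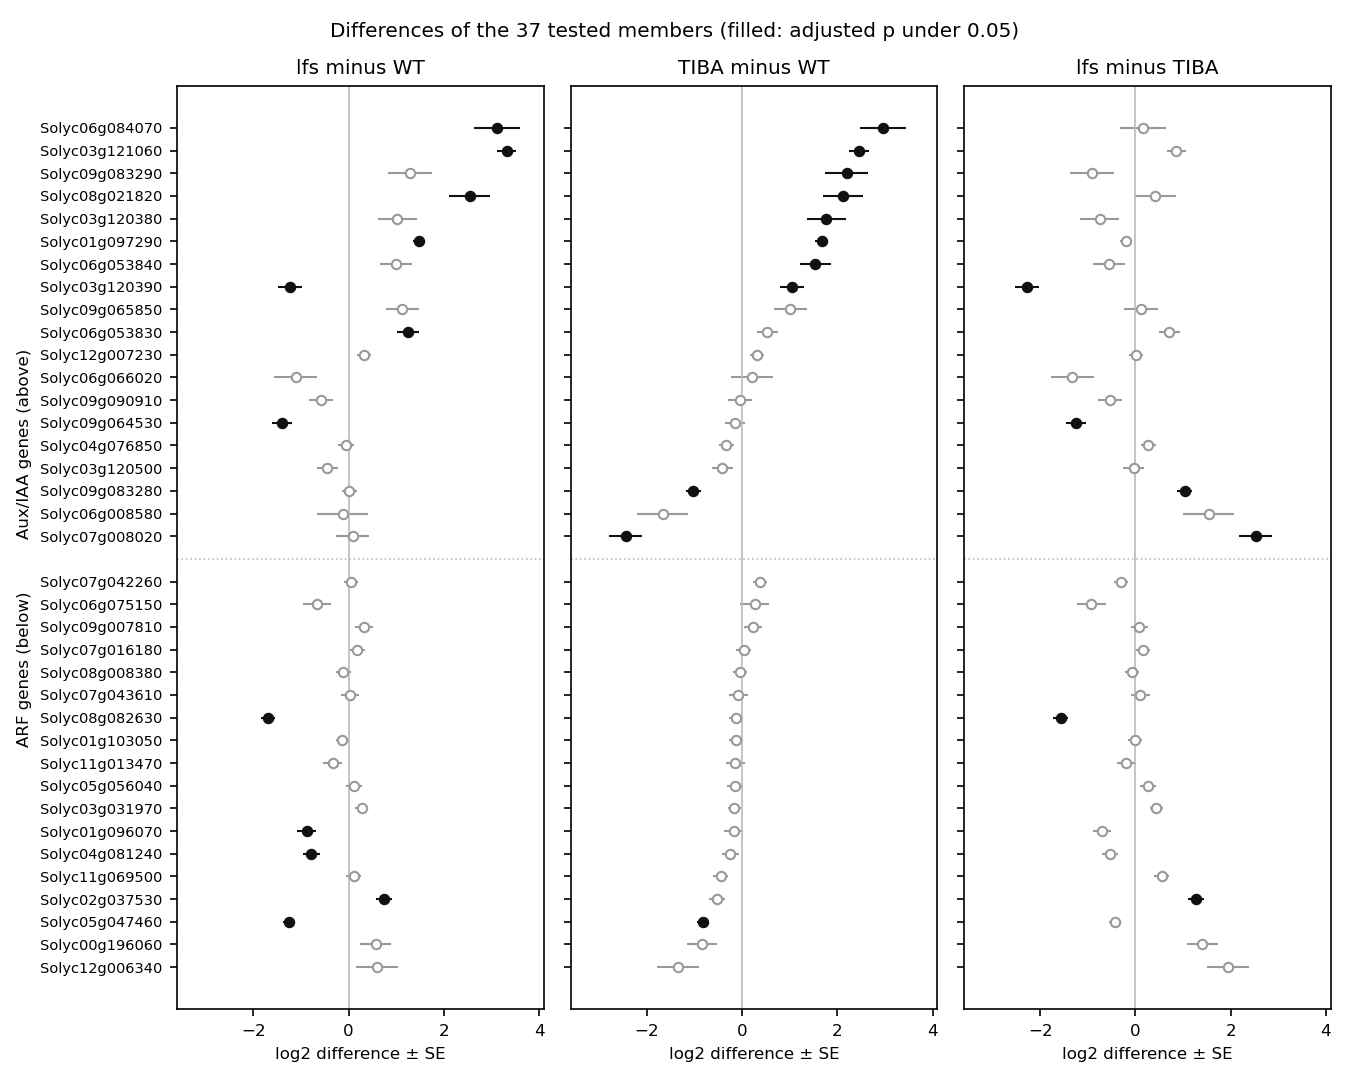
Log2 difference with its standard error for the 37 tested genes in the 3 comparisons, Aux/IAA genes above the dotted line and ARF genes below, each ordered by its difference in TIBA against WT. Filled points passed an adjusted p under 0.05 (limma). Aux/IAA values in TIBA against WT run from -2.44 to 2.95 and ARF values from -1.35 to 0.37. The 2.95 is that of Solyc06g084070, which passed the minimum only through its lfs and TIBA libraries, and the next highest is 2.46 (Solyc03g121060).

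Leaving out a library changed how many Aux/IAA genes were called, as it did over all genes. Where this left a group with 1 library, its spread was taken from the remaining groups. The 7 calls in lfs against WT became 2 without either WT replicate, while those over all tested genes went from 2810 to 536 and 853. Leaving out lfs replicate 1 gave 4 (986 over all genes) and leaving out lfs replicate 2 gave 6 (1515 over all genes). The 10 calls in TIBA against WT became 2 without either WT replicate, while those over all tested genes went from 3681 to 654 and 697. They were 10 without TIBA replicate 1 or either lfs replicate and 9 without TIBA replicate 2. Solyc01g097290 and Solyc03g121060 were the genes that remained without a WT replicate in both comparisons. The 4 calls between lfs and TIBA became 2, Solyc03g120390 and Solyc07g008020, without WT replicate 1, WT replicate 2 or lfs replicate 1. Over all tested genes the 912 calls became 361, 357 and 422 in these fits, and 103 without lfs replicate 2. Without lfs replicate 2 the limma test called 0 of the Aux/IAA genes (7 Aux/IAA genes then reached p under 0.05 before adjustment; edgeR, given all libraries, called 4). The largest shift of a called Aux/IAA or ARF difference was 0.44 log2 units, for Solyc08g021820 in TIBA against WT without TIBA replicate 1. Calls favour genes whose replicates lie close, and some uncalled differences moved more. That of Solyc09g083290 in lfs against WT, 1.29, ranged from 0.57 to 2.00. That of Solyc12g006340, an ARF gene, in TIBA against WT, -1.35, ranged from -2.03 to -0.67.

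The remaining Aux/IAA genes were not called in any of the 3 comparisons. Those nearest to the threshold were Solyc06g008580 and Solyc09g065850. Solyc06g008580 (chromosome 6) was at 27.8 and 23.4 in WT, 30.4 and 17.9 in lfs, and 4.96 and 10.8 in TIBA. Its log2 difference in TIBA against WT was -1.66 (SE 0.53, limma adjusted p = 0.071), called after quantile normalization (-1.95, limma adjusted p = 0.046). Without TIBA replicate 2 the difference was -2.15, from the lower TIBA library alone with no spread of TIBA, which lends it no support. Solyc09g065850 (chromosome 9) was at 56.6 and 59.8 in WT, 177 and 92.7 in lfs, and 116 and 121 in TIBA. Its log2 differences from WT were 1.13 in lfs (limma adjusted p = 0.078) and 1.01 in TIBA (limma adjusted p = 0.087). DESeq2 called the former (1.20, adjusted p = 0.033), while the authors' deposited table, also from DESeq2, did not (adjusted p = 0.080). Without lfs replicate 2 the difference in lfs was 1.59, from the higher lfs library alone with no spread of lfs, which lends it no support. For Solyc09g065850, neither leafless group overlapped WT. The other genes tested and not called were Solyc12g007230, Solyc04g076850, Solyc09g090910, Solyc03g120500 and Solyc06g066020, with log2 differences between -1.32 and 0.32 over the 3 comparisons. Solyc06g066020 (chromosome 6), which gave that lowest value in lfs against TIBA (limma adjusted p = 0.14), was at 35.9 and 30.3 in WT, 20.3 and 10.6 in lfs, and 33.9 and 43.1 in TIBA. Both lfs libraries lay below the other 4. Solyc09g090910 (chromosome 9) was at 518 and 425 in WT, 292 and 339 in lfs, and 577 and 357 in TIBA, again with lfs lowest. Solyc12g007230 (chromosome 12) was at 551 and 626 in WT, 693 and 781 in lfs, and 726 and 737 in TIBA, so that all 4 leafless libraries stood above WT. Solyc03g120500 (chromosome 3) was at 1754 and 1736 in WT, 1158 and 1408 in lfs, and 1043 and 1646 in TIBA, so that all 4 stood below WT. Solyc04g076850 (chromosome 4) had the most reads of the list, with 16035 and 17041 in WT, 14046 and 17915 in lfs, and 13294 and 12976 in TIBA. Its log2 difference from WT was -0.059 in lfs (95% interval -0.44 to 0.32) and -0.33 in TIBA (95% interval -0.71 to 0.049).

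The last 2 Aux/IAA genes did not reach the minimum and were not tested. Solyc12g096980 held 1 and 0 reads in WT, 2 and 2 in lfs, and 0 and 1 in TIBA. Solyc06g008590 held 1 read in WT replicate 1, 1 read in TIBA replicate 1 and none in the other 4 libraries. At this depth no difference between groups was detectable for either gene.

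Of the Aux/IAA genes, 4 pairs had neighbouring identifiers, numbered 10 apart on the same chromosome, and no ARF pair did. On chromosome 9, Solyc09g083280 was lower and Solyc09g083290 higher in TIBA than in WT. Relative to WT, the log2 ratio of the second to the first gene was 3.17 and 3.27 in TIBA, 1.99 and 0.56 in lfs, and -0.19 and 0.19 in WT. On chromosome 3, Solyc03g120390 was lower in lfs, while its neighbour Solyc03g120380 stood above WT in both lfs libraries without being called. Their log2 ratio relative to WT was -2.35 and -2.17 in lfs, -1.07 and -0.40 in TIBA, and -0.45 and 0.45 in WT. On chromosome 6, Solyc06g053830 and Solyc06g053840 lay above WT in all 4 leafless libraries. Their ratio relative to WT was 1.38 and 0.63 in TIBA and 0.23 and -0.74 in lfs, against 0.21 and -0.21 in WT. In the last pair, Solyc06g008580 had reads in each library while Solyc06g008590 was at 0 in most. Differences between neighbours were not tested, and whether reads were shared between similar neighbours cannot be read from the table.

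**Figure D3:**
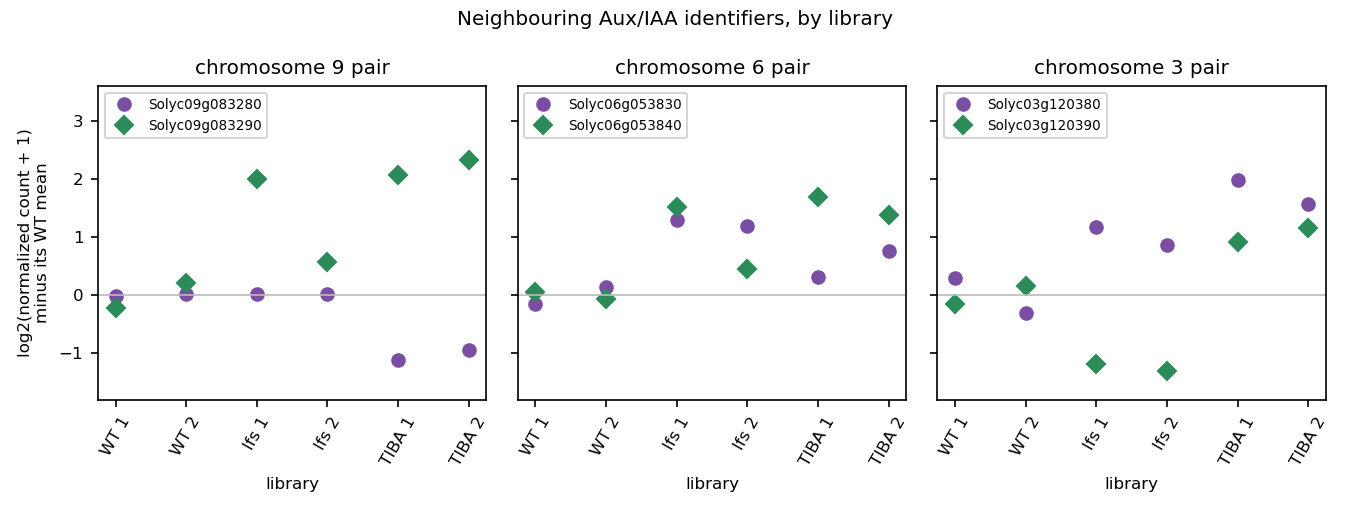
For the 3 neighbouring Aux/IAA pairs in which both genes were tested, log2(normalized count + 1) minus the mean of the WT libraries, in each of the 6 libraries. In TIBA the chromosome 9 genes lie on opposite sides of the WT mean, and in lfs the chromosome 3 genes do.

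ARF transcripts showed smaller log2 differences from WT than Aux/IAA transcripts, and their calls in lfs were mostly decreases. In lfs against WT, 1 of 18 tested ARF genes rose, 4 fell and 13 were not called. In TIBA against WT, 1 fell and 17 were not called. Between lfs and TIBA, 1 was higher in lfs, 1 was lower and 16 were not called. The shares called over all tested genes were the 14.2%, 18.6% and 4.6% given above. The groups did not overlap for 13 of the 18 ARF genes in lfs against WT, 11 in TIBA against WT and 12 between lfs and TIBA. Over all tested genes the shares without overlap were 66.6%, 66.4% and 48.9%. How many of all tested genes showed no overlap of the 3 groups was not counted. The median absolute log2 difference of the ARF genes was 0.33 in lfs and 0.20 in TIBA, near or below the 0.32 and 0.39 of all tested genes, whereas for the Aux/IAA genes it was 1.12 and 1.04. At least 2-fold differences from WT were seen in 2 of 18 ARF genes in lfs and 1 of 18 in TIBA, and in 11 and 12 of the 19 Aux/IAA genes, where 15.1% and 18.4% of all tested genes differed as much. These Aux/IAA counts and medians include Solyc06g084070 (log2 3.11 and 2.95) and Solyc08g021820 (2.54 and 2.12), which needed leafless libraries to reach the minimum. The contrast between the families was not tested, and the ARF genes rest on more reads (median of the WT means 2100.1, against 166 for the Aux/IAA genes).

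**Figure D4:**
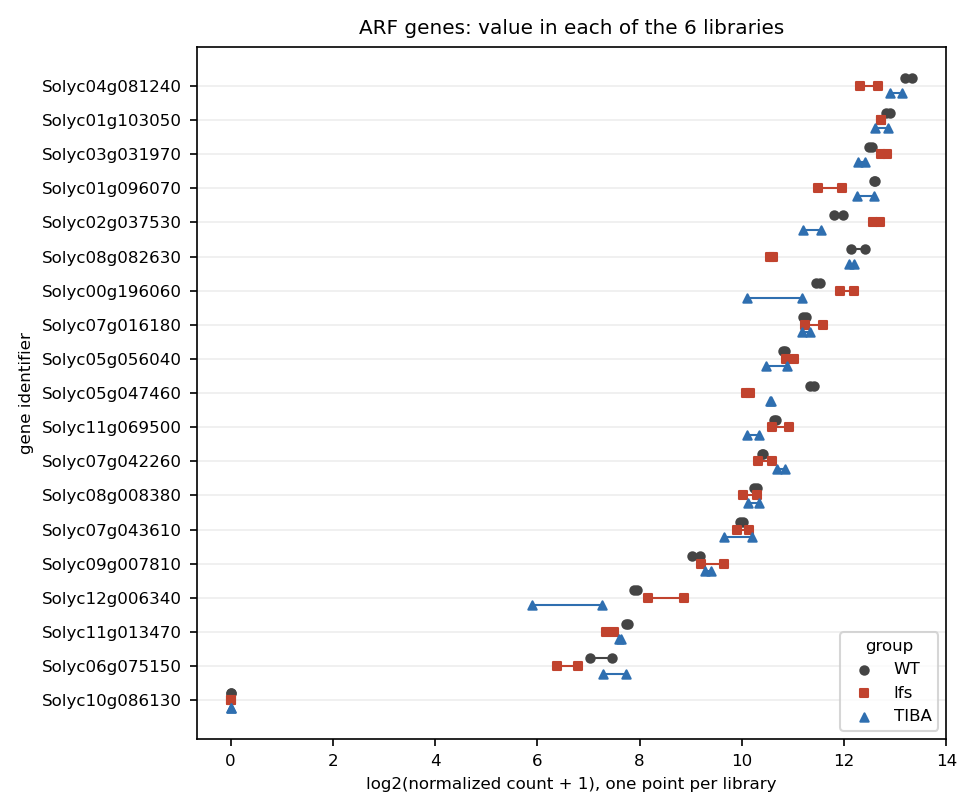
Normalized count of each of the 19 ARF genes on the log2(value + 1) scale, 1 point per library, with the 2 libraries of a group joined by a line. Solyc08g082630 is low in lfs, Solyc05g047460 is low in both leafless groups, the TIBA libraries of Solyc00g196060 and Solyc12g006340 lie far apart, and Solyc10g086130 has no read.

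Solyc08g082630 (chromosome 8) showed the largest ARF difference in lfs. It stood at 5451 and 4477 in WT, 1499 and 1555 in lfs, and 4709.8 and 4372 in TIBA. The WT and TIBA libraries overlapped and both lfs libraries lay below all of them. It fell by 1.69 on the log2 scale in lfs against WT (SE 0.15, limma adjusted p = 0.00097) and lfs was below TIBA by -1.57 (SE 0.15, limma adjusted p = 0.0042). TIBA differed from WT by -0.12 (95% interval -0.47 to 0.23). Both differences of lfs were called in each alternative tried.

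Solyc05g047460 (chromosome 5) was lower than WT in both leafless groups. Its values were 2733 and 2584 in WT, 1149 and 1086 in lfs, and 1525 and 1499 in TIBA. The 3 groups did not overlap, with lfs lowest. It was the ARF gene called in TIBA, where it fell by 0.81 on the log2 scale (SE 0.13, limma adjusted p = 0.0074), and in lfs it fell by 1.25 (SE 0.13, limma adjusted p = 0.0015). The difference between lfs and TIBA, -0.44, did not pass the test (SE 0.13, limma adjusted p = 0.098), although DESeq2 called it (adjusted p = 0.033). Without either WT replicate the decrease in TIBA was not called (log2 -0.77 and -0.85). The authors' deposited table, also from DESeq2, called neither this decrease in TIBA (adjusted p = 0.079) nor the difference between lfs and TIBA (adjusted p = 0.61).

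The other ARF decreases in lfs were smaller. Solyc04g081240 (chromosome 4) was at 9376 and 10338 in WT, 5055 and 6473 in lfs, and 7607 and 9015 in TIBA. Solyc01g096070 (chromosome 1) was at 6212 and 6185 in WT, 3981 and 2860.4 in lfs, and 4897 and 6156 in TIBA. For both genes the 3 groups did not overlap, with TIBA between WT and lfs. Against WT, lfs was lower by -0.78 (SE 0.18, limma adjusted p = 0.028) and -0.88 (SE 0.20, limma adjusted p = 0.028). The TIBA values were -0.25 (limma adjusted p = 0.35) and -0.18 (limma adjusted p = 0.56). The direct differences between lfs and TIBA, -0.53 and -0.70, were not called (limma adjusted p = 0.13 and 0.095). DESeq2 called both direct differences (adjusted p = 0.046 and 0.017). The authors' deposited table, also from DESeq2, called neither (adjusted p = 0.22 and 0.059). The call for Solyc01g096070 was lost after quantile normalization (limma adjusted p = 0.059, against 0.00059 to 0.18 over the alternatives) and without either WT replicate (log2 -0.87 and -0.88) or lfs replicate 2 (-0.64). That for Solyc04g081240 was lost without either WT replicate (log2 -0.85 and -0.71) or lfs replicate 1 (-0.60). Without TIBA replicate 1, Solyc01g096070 differed by -0.87 between lfs and TIBA. That fit keeps the higher TIBA library alone and takes no spread from TIBA, so it lends the difference no support.

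Solyc02g037530 (chromosome 2) was the ARF gene called higher in lfs. It was at 3550.5 and 4052 in WT, 6047 and 6681 in lfs, and 2336 and 2977 in TIBA. The 3 groups did not overlap, with lfs above and TIBA below WT. The log2 difference from WT was 0.74 in lfs (SE 0.17, limma adjusted p = 0.028) and -0.52 in TIBA (SE 0.17, limma adjusted p = 0.070). DESeq2 called the decrease in TIBA (adjusted p = 0.021). The authors' deposited table, also from DESeq2, did not call that decrease (adjusted p = 0.19). Between lfs and TIBA the log2 difference was 1.27 (SE 0.17, limma adjusted p = 0.011), a call lost without lfs replicate 2 (1.20). The increase in lfs was lost without any 1 of the WT and lfs libraries (log2 0.65 to 0.84). Without TIBA replicate 2 the decrease in TIBA was -0.70, from the lower TIBA library alone with no spread of TIBA, which lends it no support.

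A similar order was seen, without a call, in the ARF genes nearest to the threshold. Solyc00g196060, an identifier that by convention is placed on no chromosome, was at 2782 and 2960.1 in WT, 3855 and 4671 in lfs, and 2326 and 1101 in TIBA. Solyc12g006340 (chromosome 12) was at 248 and 237 in WT, 288 and 465 in lfs, and 152 and 58.7 in TIBA. Both were highest in lfs and lowest in TIBA, and TIBA replicate 2, the library with the fewest reads, lay far below TIBA replicate 1. Their log2 differences between lfs and TIBA were 1.41 (SE 0.32, limma adjusted p = 0.055) and 1.94 (SE 0.44, limma adjusted p = 0.056). DESeq2 called both differences with all libraries. Without TIBA replicate 1 they were 1.95 and 2.62 on the log2 scale, and those of TIBA against WT -1.38 and -2.03. That fit keeps the lower TIBA library alone and takes no spread from TIBA, so it lends these differences no support. With only the WT and lfs libraries, Solyc00g196060 was called higher in lfs than in WT (log2 0.56, limma adjusted p = 0.030). The authors' deposited table called both in lfs against TIBA (adjusted p = 0.021 and 0.017) and neither in TIBA against WT (adjusted p = 0.23 and 0.13) or in lfs against WT (adjusted p = 0.47 and 0.60).

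The ARF calls moved with the libraries as well. In lfs against WT the 5 calls became 2, Solyc08g082630 and Solyc05g047460, without either WT replicate, and 3 without either lfs replicate, in the fits whose counts over all genes are given above. In TIBA against WT the single call became 0 without either WT replicate (limma; 2 and 1 ARF genes then reached p under 0.05 before adjustment; edgeR, given all libraries, called 1), 3 without TIBA replicate 1 (6502 over all genes) and 2 without TIBA replicate 2 (2530 over all genes). Between lfs and TIBA the 2 calls became 1 without lfs replicate 2, where Solyc08g082630 remained, and 5 without TIBA replicate 1 (2734 over all genes).

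The other ARF genes tested and not called had log2 differences between -0.92 and 0.55 over the 3 comparisons. Solyc01g103050 (chromosome 1) stood at 7598 and 7249 in WT, 6791 and 6761 in lfs, and 7393 and 6258 in TIBA, and its difference from WT was -0.13 in both lfs (95% interval -0.47 to 0.21) and TIBA (95% interval -0.46 to 0.21). Solyc07g016180 and Solyc07g043610 (both chromosome 7) overlapped in each pair of groups, at 2315 to 3059.9 and at 805 to 1167 over the 6 libraries. Both ends of that range were differences between lfs and TIBA. Solyc06g075150 (chromosome 6), at the low end (limma adjusted p = 0.13), was at 175 and 129 in WT, 109 and 82.1 in lfs, and 154 and 212 in TIBA, and Solyc11g069500 (chromosome 11), at the high end (limma adjusted p = 0.10), was at 1593 and 1632 in WT, 1547 and 1948 in lfs, and 1090.4 and 1284 in TIBA. The lfs libraries were thus the lowest for Solyc06g075150, and the TIBA libraries the lowest for Solyc11g069500. Solyc03g031970 (chromosome 3) was at 5720.3 and 5978 in WT, 7359 and 6771 in lfs, and 4969.6 and 5470.0 in TIBA, highest in lfs and without overlap of the 3 groups. Solyc07g042260 (chromosome 7) was at 1339 and 1358 in WT, 1277 and 1545 in lfs, and 1843 and 1647 in TIBA, highest in TIBA. Solyc11g013470 (chromosome 11) was at 218 and 213 in WT, 180.3 and 162 in lfs, and 199 and 193 in TIBA, highest in WT. Solyc08g008380, Solyc09g007810 and Solyc05g056040 (chromosomes 8, 9 and 5) ranged over the 6 libraries from 1036 to 1286, from 519.9 to 802 and from 1412 to 2068. Solyc10g086130 had no read in any library, which allows a normalized count of up to 2.44 to 3.59 per library (3 reads, counting error only).

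The authors' deposited table, from DESeq2, called 11.6% of the 25845 genes with an adjusted p in lfs against WT, 14.3% in TIBA against WT and 5.65% in lfs against TIBA. In lfs against WT it called 8 Aux/IAA genes, the 7 of the limma test and Solyc06g053840, and the same 5 ARF genes. In TIBA against WT the authors' deposited table called 9 Aux/IAA genes, all among the 10 of the limma test, and 0 ARF genes, where DESeq2 (1.42.0) on the recovered reads called 3 and 6 had an unadjusted p under 0.05 in the limma test. Between lfs and TIBA it called 3 Aux/IAA and 5 ARF genes, the latter including Solyc00g196060, Solyc12g006340 and Solyc11g069500. These calls rest on the same libraries and are no independent support.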

How the data were processed

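Per the submitters' processing notes, the authors used TopHat2 (2.0.10), HTSeq (0.6.1p1) and DESeq2 (1.6.3); genome build, annotation, strand handling and test options: not given in the sources used here. Per gene, the deposited table holds a signal, DESeq2-normalized counts made by the authors, per the file headers. It also holds the authors' log2 fold changes and p-values, per the file headers. All values (100%) were whole multiples of 1 read within 0.001 reads, so reads were recovered. No sample column was left unused.

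Tests were run with limma 3.58.1 under R 4.3.3. Values were taken as log2(normalized count + 1), with an intensity trend, robust moderation and Benjamini-Hochberg adjustment over the 19807 genes that reached 10 in at least 2 libraries. The 3 groups were fitted together, leaving 3 residual degrees of freedom. Differences on this scale understate changes of genes with few reads, and intervals are unadjusted. The steps were tested on simulated data. Alternatives were other pseudocounts (0.5 and 5), no minimum, a mean of at least 5 CPM, a replicate block, only the 4 libraries compared, quantile normalization, edgeR (4.0.16) and DESeq2 (1.42.0) on the recovered reads, and each library left out.

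The members, lists and tests were chosen with earlier results of these data known. Members called in any comparison, neighbouring identifiers and the 2 uncalled members of each family nearest to the threshold were to be named; the others are given more briefly. Lists of auxin receptors, TOPLESS co-repressors and leaf markers could not be filled, because no source used here pairs descriptions with the identifiers, and no promoter or protein sequence was used.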

Additional observations from a re-analysis of the deposited data

How the results depend on the processing

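Of 29 called member differences, 24 stayed called in every alternative that tested them other than those leaving out 1 library, 7 also in each of these, and none changed sign. The numbers called were less stable. Counts beyond 1.5 times the reported ones were as follows. For lfs against WT, 4494 genes were called with only the 4 libraries compared. For TIBA against WT, requiring a mean of at least 5 CPM left 6 Aux/IAA genes (2847 over all genes), and DESeq2 called 3 ARF genes (4560 over all genes). The minimum of 5 CPM left called members with few reads untested, and the 22 called differences that it did test all stayed called. For lfs against TIBA, 565 genes were called with a mean of at least 5 CPM, 474 with a replicate block, 369 (1 Aux/IAA gene) with only the 4 libraries compared and 2008 (9 ARF genes) by DESeq2. Leaving out a library gave 536 to 4451 genes, 2 to 8 Aux/IAA genes and 2 to 6 ARF genes for lfs against WT. It gave 654 to 6502, 2 to 10 and 0 to 3 for TIBA against WT, and 103 to 2734, 0 to 4 and 1 to 5 for lfs against TIBA. Fewer samples remain in those fits, yet some of the counts rose. A group left with 1 library adds nothing to the estimate of spread, and replicates differed most in TIBA (median SD 0.23 log2 units). What caused the shifts was not tested.

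The replicate numbers are not stated to pair the libraries: differences between replicates correlated at 0.015 (WT and lfs), -0.051 (WT and TIBA) and -0.14 (lfs and TIBA) across genes. The replicate block lost 3 of the 29 calls (Solyc03g120390 in TIBA against WT, Solyc09g064530 in lfs against TIBA and Solyc01g096070 in lfs against WT, limma adjusted p = 0.055, 0.056 and 0.055), gained Solyc03g121060 in lfs against TIBA (limma adjusted p = 0.049) and left 7, 9 and 4 Aux/IAA and 4, 1 and 2 ARF genes in lfs against WT, TIBA against WT and lfs against TIBA. With the TIBA numbers crossed, an alternative added after seeing the data, 5 Aux/IAA and 4 ARF genes were called between lfs and TIBA. Depth limits the 3 untested members and genes such as Solyc06g084070.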
